A study of Mus musculus with 32 samples.

Results

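The genes described here encode the vacuolar-type proton ATPase (V-ATPase), the pump that acidifies the lysosome, together with proteins of the lysosomal membrane and of lysosomal sterol transport. They were taken as 38 gene symbols chosen for these functions and not for their values, out of 17881 genes named on either array. Earlier results of these data were known when the symbols were chosen. A probe was named for 36 of them in each experiment, among 15962 named genes in experiment 1 and 16584 in experiment 2. Atp6v0c had no probe on either array, Atp6v1g1 none in experiment 1 and Npc1 none in experiment 2, so those values were not analysed here. The members were read over 51 probes in experiment 1 and 55 probes in experiment 2.

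Bone marrow derived macrophages from 16-week-old ApoE-/- mice of the DBA/2 and AKR strains, fed chow, were cultured for 13 days in medium conditioned by L cells, a source of M-CSF, and then incubated for 24 h with or without acetylated LDL (AcLDL), a modified lipoprotein that macrophages take up through scavenger receptors. Each experiment had 4 groups of 4 arrays, namely DBA/2 loaded, DBA/2 unloaded, AKR loaded and AKR unloaded cells. Cells of experiment 1 were labelled female and received 100 µg/ml AcLDL, and cells of experiment 2 were labelled male and received 50 µg/ml. The ApoE deletion was shared by all groups, and dishes of a group are not stated to come from separate mice. The experiments used different batches of AcLDL in different years. The paper gives the unequal loading efficiency of the AcLDL preparations as the reason for the different doses. Sex, dose, AcLDL batch, year and array version cannot be told apart between the experiments. Since a dish rather than a mouse may be the replicate, the p-values below measure the spread between these dishes.

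Arrays were correlated over the probes that passed a filter on dim probes. Of the 16 arrays of experiment 1, each correlated best with its own group, with mean r between 0.994 and 0.996. In experiment 2, 2 of 16 arrays did not. The array labelled AKR unloaded replicate 1 had a mean r of 0.986 with the loaded AKR arrays and 0.966 with its own group, and the array labelled AKR loaded replicate 2 had a mean r of 0.985 with the unloaded AKR arrays and 0.968 with its own group. Results of experiment 2 are therefore given by the labels, and also without these 2 arrays, a choice made with the array correlations known. All 6 of the measured macrophage markers passed the filter on dim probes in both experiments. Genes tied to sex were read against the labels. The Y-linked gene Eif2s3y lay between 5.21 and 5.81 (log2) on all arrays of experiment 1. In experiment 2, labelled male, it lay between 7.89 and 8.41 on the DBA/2 arrays and between 3.19 and 3.97 on the AKR arrays, with a log2 difference of 4.39 ± 0.16 in unloaded and 4.62 ± 0.16 in loaded cells. Both probes of Xist, which is made from the inactive X of females, lay between 3.69 and 4.70 on all 16 arrays there, and the Y-linked Kdm5d (4.75 to 5.57) and Uty (4.64 to 5.36) did not pass between the strains. The part of sex in the strain differences of experiment 2 was not tested.

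The V-ATPase is built from a cytosolic V1 sector, which hydrolyses ATP, and a membrane-embedded V0 sector, which conducts protons into the lumen. The low luminal pH that results is needed by the acid hydrolases, among them the lipase that releases cholesterol from the cholesteryl esters of internalised lipoproteins. Free cholesterol then leaves the lysosome through Npc2 and Npc1, and chloride, cystine, sialic acid and metal ions cross the membrane through dedicated carriers. Many lysosomal genes carry the palindromic E-box CACGTG in their promoters, the core of the longer CLEAR element that is recognised by the transcription factor TFEB.

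Promoter windows from 250 bases before to 50 bases after the annotated start were taken from RefSeq (GRCm38.p6) for 29 of the 38 members, which are shown because 10 of the 12 pump subunits tested rose on loading in AKR cells of experiment 1. CACGTG, which reads the same on both strands, was found in the windows of 8 of these 29 members, against 8.09% of 27025 genes with a window. The 8-base form TCACGTGA, which contains it, was found in 6 of the 29 members and in 1.12% of all genes. A match describes the letters of the window only. The 150 bases before the start of the V0 subunit Atp6v0b (chr4:117887330-117887479, minus strand), the V1 subunit Atp6v1a (chr16:44139260-44139409, minus strand), the chloride carrier Clcn7 (chr17:25133241-25133390, plus strand), the glycoprotein Lamp1 (chr8:13159011-13159160, plus strand), the sialomucin Cd164 (chr10:41519350-41519499, plus strand) and the V0 subunit Tcirg1 (chr19:3907134-3907283, minus strand, the outermost of its annotated starts) are given 5′ to 3′ on the gene's strand, with CACGTG in capitals. Tcirg1 has none and is shown because it had the largest loading response of the members in experiment 1.
Atp6v0b: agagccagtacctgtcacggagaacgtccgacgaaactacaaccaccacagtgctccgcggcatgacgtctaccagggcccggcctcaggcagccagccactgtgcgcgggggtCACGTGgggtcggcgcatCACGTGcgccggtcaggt
Atp6v1a: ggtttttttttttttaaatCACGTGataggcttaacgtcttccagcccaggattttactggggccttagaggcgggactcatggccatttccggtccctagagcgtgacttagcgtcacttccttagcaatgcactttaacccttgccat
Clcn7: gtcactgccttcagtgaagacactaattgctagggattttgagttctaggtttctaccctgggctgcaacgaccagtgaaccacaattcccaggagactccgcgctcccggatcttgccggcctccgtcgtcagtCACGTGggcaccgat
Lamp1: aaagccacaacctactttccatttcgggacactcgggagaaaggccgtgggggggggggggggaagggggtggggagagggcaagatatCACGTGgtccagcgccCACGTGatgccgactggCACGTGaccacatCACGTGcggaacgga
Cd164: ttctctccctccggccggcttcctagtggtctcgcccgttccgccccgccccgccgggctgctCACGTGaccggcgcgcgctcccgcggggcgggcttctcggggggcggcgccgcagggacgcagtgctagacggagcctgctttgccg
Tcirg1: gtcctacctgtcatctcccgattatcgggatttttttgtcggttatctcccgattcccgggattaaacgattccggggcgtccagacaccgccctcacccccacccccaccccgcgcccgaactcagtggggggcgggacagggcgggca

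**Figure D1:**
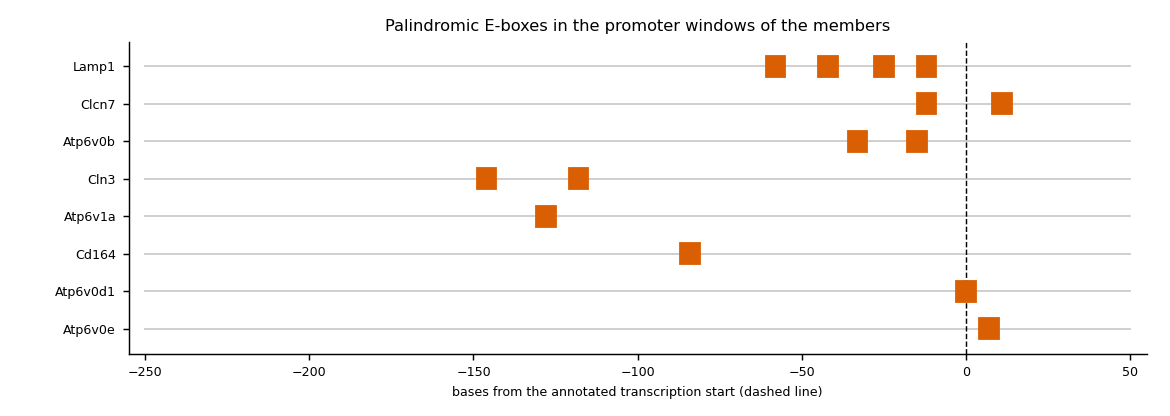
Positions of the palindromic E-box in the promoter windows of the 8 members that have one, in bases from the annotated transcription start (x axis, 250 bases before to 50 bases after, dashed line at the start). Each block is 1 E-box drawn to scale. Lamp1 holds 4, Clcn7, Atp6v0b and Cln3 hold 2 each and the others 1, most of them within 61 bases of the start.

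The other E-boxes of the members are shown as the site with 3 bases on each side. The V0 subunit Atp6v0d1 has ggtCACGTGaga at chr8:105566059-105566070 (minus strand), and the V0 subunit Atp6v0e has gatCACGTGagc at chr17:26676396-26676407 (plus strand). The second Clcn7 site, gatCACGTGaga at chr17:25133395-25133406 (plus strand), lies just after its start, as does that of Atp6v0e. Cln3, a lysosomal membrane protein whose loss causes a childhood storage disease in humans, has aagCACGTGatg at chr7:126583377-126583388 and tgtCACGTGacc at chr7:126583349-126583360 (minus strand).

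Loading was first compared with no loading within each strain. In experiment 1, 10 of 12 pump subunits tested rose in AKR cells and 3 of 12 in DBA/2 cells. Of the 34 members that passed the filter, 4 rose and 2 fell in loaded DBA/2 cells at an adjusted p under 0.01, against 12.8% of 9312 genes called in either direction, 6.42% higher and 6.4% lower. The median log2 difference was 0.08 over the members and 0.01 over all genes. In AKR cells of the same experiment 17 members rose and 2 fell, against 31.3% of all genes called, 16.2% higher and 15.1% lower, with a median of 0.26 over the members and 0.01 over all genes.

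All 12 V1 and V0 subunits tested had a positive loading difference in both strains of experiment 1. In DBA/2 cells these differences lay between 0.08 and 0.35 on the log2 scale, and 3 passed the test. In AKR cells they lay between 0.16 and 1.26, and 10 of 12 passed, namely all 6 V1 subunits tested and 4 of 6 V0 subunits. The 2 others, Atp6v0a2 and Atp6v0d1, had log2 differences of 0.16 and 0.26 in AKR cells. These signs are those of each gene's brightest probe. The other probes of Atp6v0d1 were negative in both strains, and 1 of them was called lower in loaded DBA/2 cells (-0.44). With the mean of a gene's probes in place of the brightest, 10 of 12 subunits were positive in DBA/2 cells, all but Atp6v0d1 (-0.19) and Tcirg1 (-0.05), and 12 of 12 in AKR cells, 9 of them called. The accessory subunits Atp6ap1 and Atp6ap2, which guide assembly of the pump, had differences of 0.07 and -0.16 in DBA/2 cells and of 0.22 and -0.16 in AKR cells and did not pass.

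**Figure D2:**
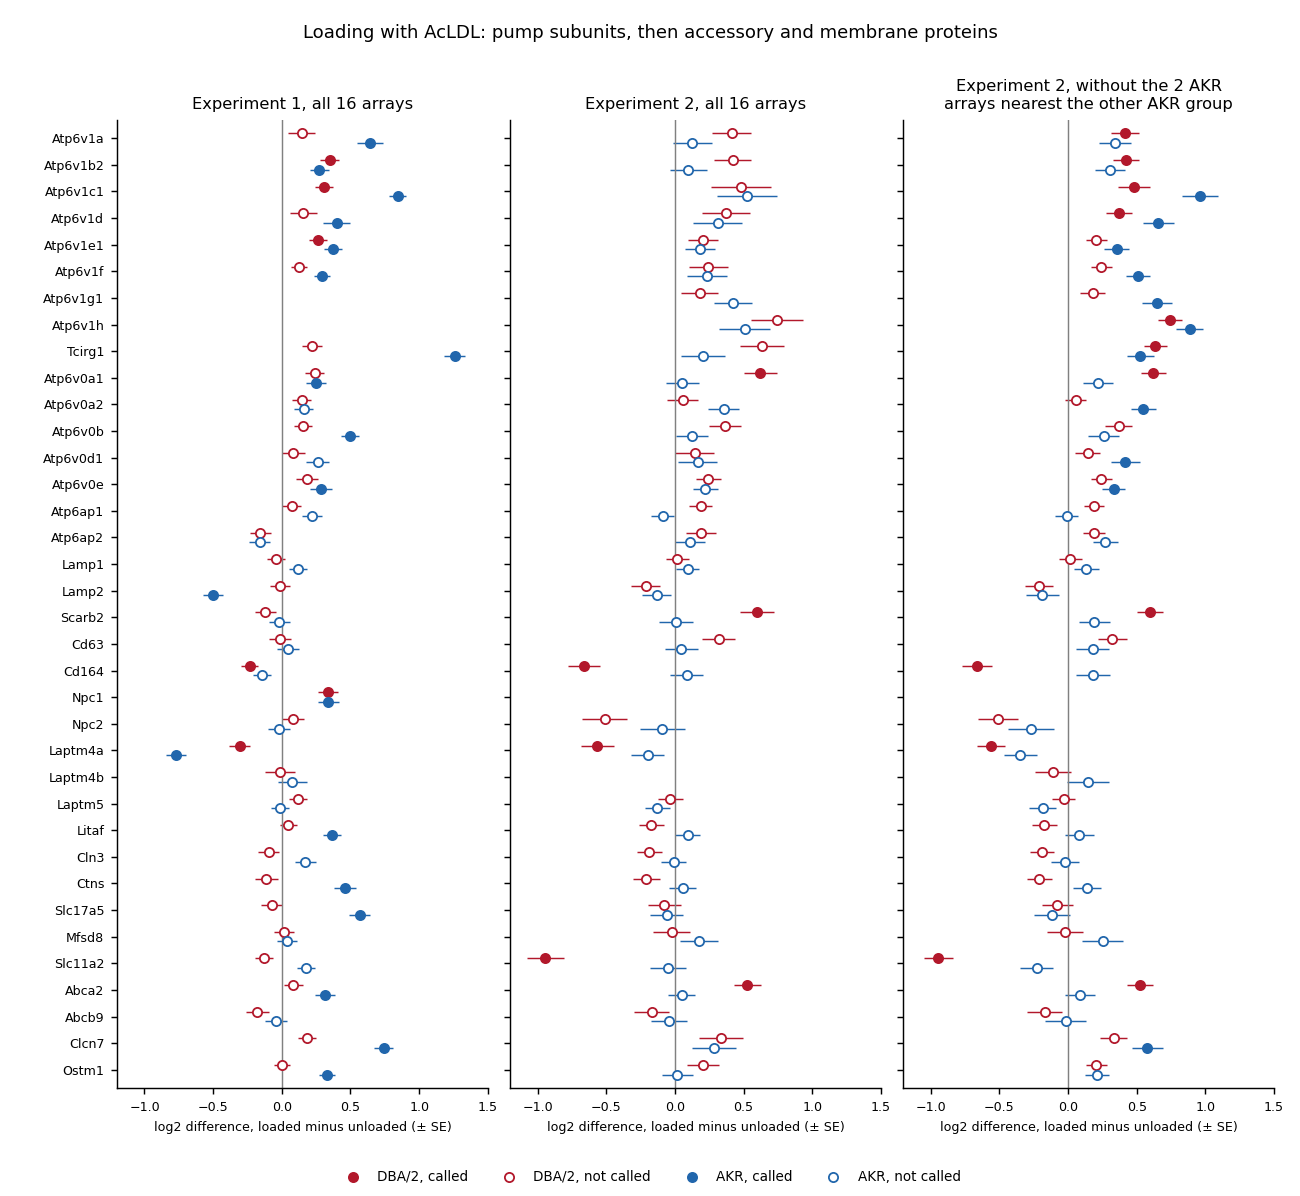
Loading difference of every member tested, as log2 loaded minus unloaded ± SE (x axis), for DBA/2 (red, upper) and AKR (blue, lower) cells. V1 subunits are at the top, then V0, accessory and membrane proteins. Filled points passed an adjusted p under 0.01. In experiment 1 3 DBA/2 points of pump subunits are filled, against 10 AKR points.

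Tcirg1 encodes the a3 isoform of the V0 subunit a, the isoform used in lysosomes and in the ruffled border of osteoclasts. In DBA/2 cells of experiment 1 it stood at 11.36, 11.44, 11.24 and 11.35 (log2) in loaded dishes, against 11.10, 11.07, 11.02 and 11.33 in unloaded dishes, and the groups overlapped (log2 difference 0.22 ± 0.08 SE, adjusted p = 0.04). In AKR cells it stood at 12.22, 12.34, 12.36 and 12.36 in loaded dishes, against 11.05, 10.90, 11.17 and 11.12 in unloaded dishes. Every loaded AKR dish exceeded every unloaded one by over 1 log2 unit, a 2.39-fold rise (log2 difference 1.26 ± 0.08, adjusted p = 1.22e-12). The other probes of Tcirg1 gave -0.20 and -0.16 in DBA/2 cells, neither called, and 0.96 and 1.09 in AKR cells, both called.

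Atp6v1c1 encodes the V1 subunit C, which joins the 2 sectors when the pump assembles. It measured 10.72, 10.59, 10.76 and 10.68 in loaded DBA/2 dishes, against 10.36, 10.44, 10.34 and 10.37 in unloaded DBA/2 dishes, a 1.24-fold rise (log2 difference 0.31 ± 0.06, adjusted p = 9.62e-04). In AKR dishes it measured 11.59, 11.64, 11.52 and 11.54 when loaded, against 10.80, 10.60, 10.78 and 10.74 when unloaded, a 1.79-fold rise (log2 difference 0.84 ± 0.06, adjusted p = 9.98e-11). Loaded dishes lay above unloaded ones without overlap in both strains.

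The other pump subunits that rose in loaded AKR cells of experiment 1 were the catalytic subunit Atp6v1a (log2 difference 0.64), the regulatory subunit Atp6v1b2 (0.27), Atp6v1d (0.40), the stalk subunit Atp6v1e1 (0.37), Atp6v1f (0.29), the proteolipid Atp6v0b (0.49), Atp6v0e (0.29) and the a1 isoform Atp6v0a1 (0.25). For Atp6v0a1 the other probes gave 0.13 and 0.07 and were not called. Besides Atp6v1c1, the subunits Atp6v1b2 (0.35) and Atp6v1e1 (0.26) rose in loaded DBA/2 cells.

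Among the membrane proteins, 5 of 8 transporters and channels tested rose in loaded AKR cells of experiment 1, and Laptm4a and Lamp2 fell. Those that rose were Clcn7, the chloride/proton exchanger of the lysosome (0.74), its beta subunit Ostm1 (0.33), the cystine exporter Ctns (0.46), the sialic acid exporter Slc17a5 (0.57) and the ABC transporter Abca2 (0.31). Npc1, which passes cholesterol out of the lysosome, rose in both strains (0.34 ± 0.07 in DBA/2 cells and 0.34 ± 0.07 in AKR cells), and Litaf, an endosomal membrane protein, rose in AKR cells (0.37). None of these carriers but Npc1 passed the test in DBA/2 cells, where the 8 transporters and channels had differences between -0.18 and 0.19.

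Clcn7 stood at 9.57, 9.71, 9.47 and 9.59 in loaded DBA/2 dishes, against 9.39, 9.49, 9.44 and 9.29 in unloaded DBA/2 dishes of experiment 1 (log2 difference 0.19 ± 0.07, adjusted p = 0.0496). In AKR dishes it stood at 10.01, 10.02, 10.08 and 10.02 when loaded, against 9.19, 9.27, 9.36 and 9.33 when unloaded (log2 difference 0.74 ± 0.07, adjusted p = 2.05e-09). Only the DBA/2 groups overlapped.

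Laptm4a, a small membrane protein of late endosomes and lysosomes, fell on loading in both strains of experiment 1. Its levels were 11.05, 10.93, 10.97 and 11.14 in loaded DBA/2 dishes, against 11.34, 11.28, 11.42 and 11.27 in unloaded DBA/2 dishes (log2 difference -0.31 ± 0.07, adjusted p = 0.00428). In AKR dishes they were 10.62, 10.49, 10.38 and 10.68 when loaded, against 11.17, 11.43, 11.32 and 11.33 when unloaded (log2 difference -0.77 ± 0.07, adjusted p = 8.24e-09). No loaded dish reached the level of an unloaded dish of its strain.

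Lamp2, one of the 2 main glycoproteins of the lysosomal membrane and needed for fusion with autophagosomes, had a log2 difference of -0.01 in DBA/2 cells and fell by 0.50 on the log2 scale in AKR cells (adjusted p = 4.96e-06). Lamp1, the other, had differences of -0.04 in DBA/2 cells and 0.12 in AKR cells, neither called. Cd164, a sialomucin of endosomes, lysosomes and the cell surface, fell in loaded DBA/2 cells to 9.86, 9.84, 9.95 and 9.90, against 10.18, 10.09, 10.09 and 10.13 in unloaded ones (log2 difference -0.23 ± 0.06, adjusted p = 0.0097), a call that was lost in 13 of 16 fits that left out 1 array. In AKR cells its difference was -0.14 and was not called.

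In experiment 2 by the labels, 3 members rose and 3 fell in loaded DBA/2 cells, against 8.31% of 9353 genes called, 4.57% higher and 3.74% lower. Those that rose were Atp6v0a1 (0.62; a second probe gave 0.24 and was not called), Scarb2 (0.60), the membrane protein Limp2 that carries glucocerebrosidase to the lysosome, and Abca2 (0.53). Those that fell were Laptm4a (-0.56), Cd164 (-0.66) and the iron transporter Slc11a2 (-0.94). In loaded AKR cells no member was called by limma, and none of the 9353 genes was (0% called). Of 34 members, 5 had an unadjusted p under 0.05, all positive. The share of all genes at that threshold was not counted.

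Laptm4a and Cd164 were called lower in loaded DBA/2 cells of both experiments. They were 2 of 2 members that fell in experiment 1 and 2 of 3 in experiment 2. How many of all genes had the same call in both experiments was not counted, here or for the overlaps below. In experiment 2, Laptm4a measured 10.13, 10.05, 10.12 and 9.78 in loaded DBA/2 dishes, against 10.65, 10.51, 10.65 and 10.52 in unloaded ones (adjusted p = 0.00449). Cd164 measured 9.56, 9.84, 9.80 and 10.06 in loaded DBA/2 dishes, against 10.46, 10.47, 10.52 and 10.46 in unloaded ones (adjusted p = 0.00123). The groups did not overlap for either gene. The call of Laptm4a was lost in 4 of 16 fits that left out 1 array in experiment 1 and in 6 of 16 in experiment 2.

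Slc11a2 encodes the divalent metal carrier DMT1, which moves iron out of endosomes. It measured 7.20, 7.44, 7.34 and 7.12 in loaded DBA/2 dishes of experiment 2, against 8.35, 8.32, 8.08 and 8.13 in unloaded ones, a level 1.92-fold lower when loaded (adjusted p = 1.56e-04). In experiment 1 the same probe gave a difference of -0.13 ± 0.07 in DBA/2 cells that did not pass.

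Without the 2 AKR arrays, most of the members called higher on loading in experiment 2 were pump subunits. In loaded DBA/2 cells 9 of 35 members rose and 3 fell, against 18.9% of 9469 genes called, 10.3% higher and 8.64% lower. In loaded AKR cells 11 members rose and 0 fell, against 19.7% of all genes called, 10.1% higher and 9.63% lower. At an unadjusted p under 0.05, 1 member was lower. The members called in AKR cells were Atp6v1c1 (0.96), Atp6v1h (0.89), Atp6v1d (0.66), Atp6v1g1 (0.65), Clcn7 (0.58), Atp6v0a2 (0.55), Tcirg1 (0.53), Atp6v1f (0.51), Atp6v0d1 (0.42), Atp6v1e1 (0.35) and Atp6v0e (0.33). For Atp6v0d1 by the labels, the mean of its probes was positive on loading in AKR cells but negative in DBA/2 cells, where its brightest probe was positive. In DBA/2 cells Atp6v1h (0.74), Tcirg1 (0.64), Atp6v1c1 (0.48), Atp6v1b2 (0.42), Atp6v1a (0.41) and Atp6v1d (0.37) were called besides the 6 called by the labels. No DBA/2 array was left out, and the DBA/2 differences of the pump subunits were the same in both fits, with a median of 0.37. The added DBA/2 calls thus do not come from larger differences. The tests of the 2 fits differ in their spread, which is estimated over the arrays of all 4 groups, AKR included. They also differ in the probes over which p-values were adjusted, 13732 by the labels and 13911 without the 2 arrays. The part of each in the added calls was not tested.

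Atp6v1h, the V1 subunit H that couples the 2 sectors, was read only in experiment 2. Its DBA/2 levels were 10.53, 10.49, 10.71 and 10.72 in loaded dishes, against 9.90, 9.77, 9.92 and 9.89 in unloaded dishes. Its AKR levels were 10.94, 10.10, 11.00 and 11.15 in loaded dishes, against 10.73, 10.07, 10.24 and 10.12 in unloaded dishes, where the second loaded and the first unloaded dish are the 2 arrays named above. The rise in AKR cells was 1.42-fold by the labels (adjusted p = 0.36) and 1.85-fold without these arrays (adjusted p = 5.21e-06).

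Atp6v1c1 and Tcirg1 showed the same exchange of levels in the AKR cells of experiment 2. Atp6v1c1 measured 9.26, 8.48, 9.50 and 9.75 in loaded AKR dishes, against 9.24, 8.32, 8.75 and 8.57 in unloaded ones. Tcirg1 measured 10.93, 10.34, 11.19 and 11.03 in loaded AKR dishes, against 11.10, 10.44, 10.51 and 10.60 in unloaded ones. In both cases the second loaded dish lay among or below the unloaded values, and the first unloaded dish lay just below the loaded ones or among them.

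**Figure D3:**
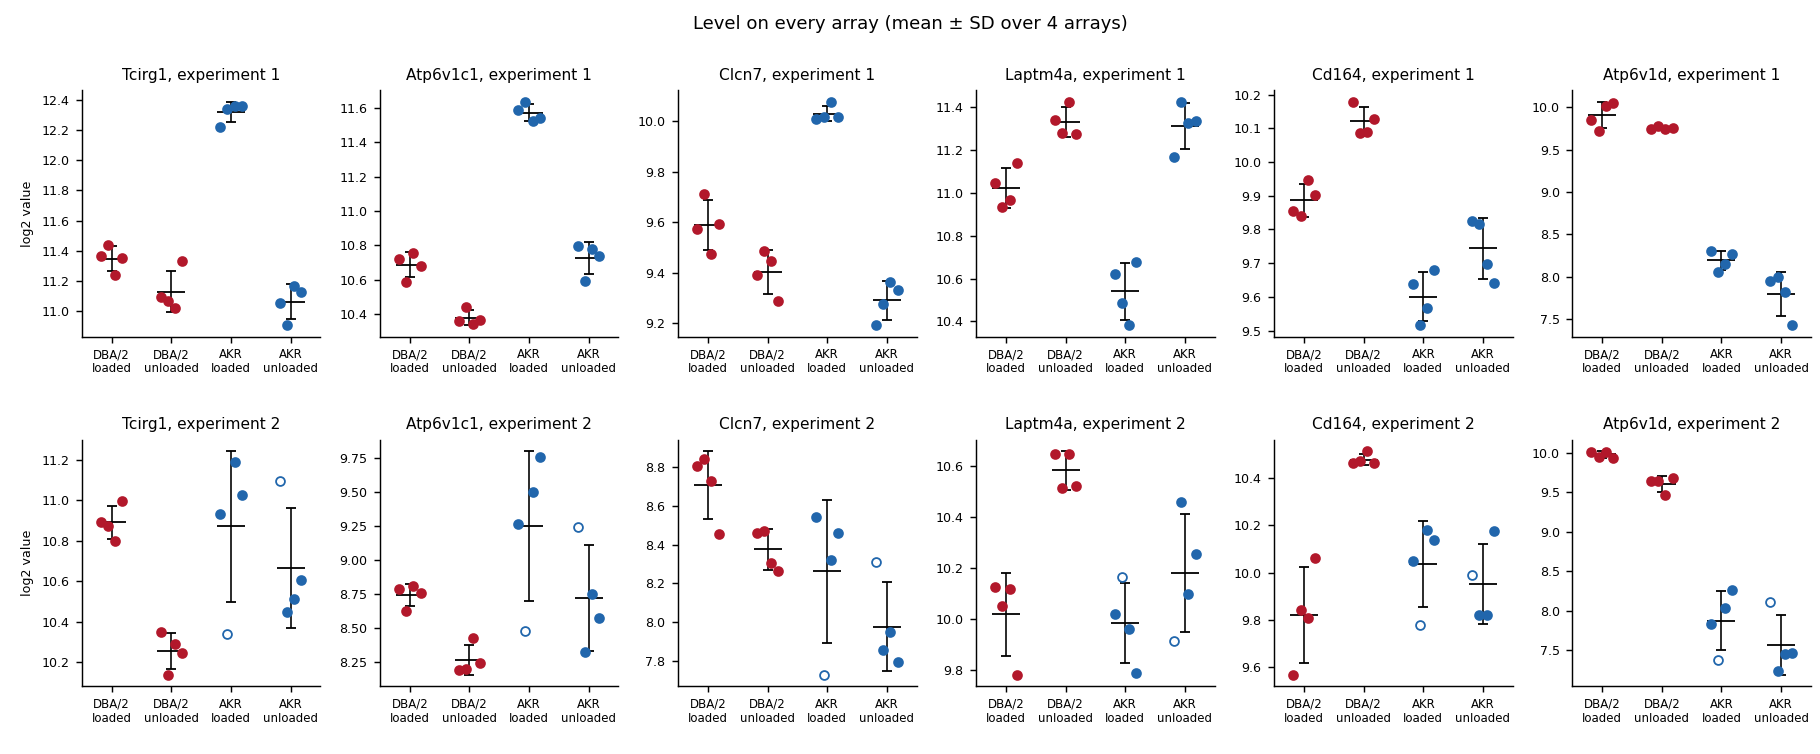
Level of 6 members on every array (log2, y axis) in the 4 groups of experiment 1 (top) and experiment 2 (bottom), with mean ± SD over 4 arrays. Open points in experiment 2 are the arrays labelled AKR loaded replicate 2 and AKR unloaded replicate 1. Loaded AKR dishes stand apart for Tcirg1, Atp6v1c1 and Clcn7 in experiment 1, and Atp6v1d is higher on every DBA/2 array.

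The group means of both sectors of the pump were higher in loaded than in unloaded cells of each strain. Each subunit was taken as its deviation from its own mean over the 16 arrays and averaged over the sector, leaving out Atp6v1d. In experiment 1 the 5 V1 subunits averaged 0.00 ± 0.04 in loaded and -0.24 ± 0.00 in unloaded DBA/2 cells, and 0.36 ± 0.06 in loaded and -0.13 ± 0.04 in unloaded AKR cells (SD, n = 4 arrays). The 6 V0 subunits averaged 0.02 ± 0.03 and -0.15 ± 0.04 in loaded and unloaded DBA/2 cells, and 0.29 ± 0.06 and -0.16 ± 0.07 in loaded and unloaded AKR cells. Within a group the sectors did not order the arrays alike, and of the loaded AKR arrays replicate 3 was the lowest for V1 (0.29) and the highest for V0 (0.35). In experiment 2 the second loaded AKR array stood at -0.19 for V1 and the first unloaded AKR array at 0.33, while the 3 other loaded AKR arrays lay between 0.35 and 0.50 and the 3 other unloaded ones between -0.21 and -0.15.

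**Figure D4:**
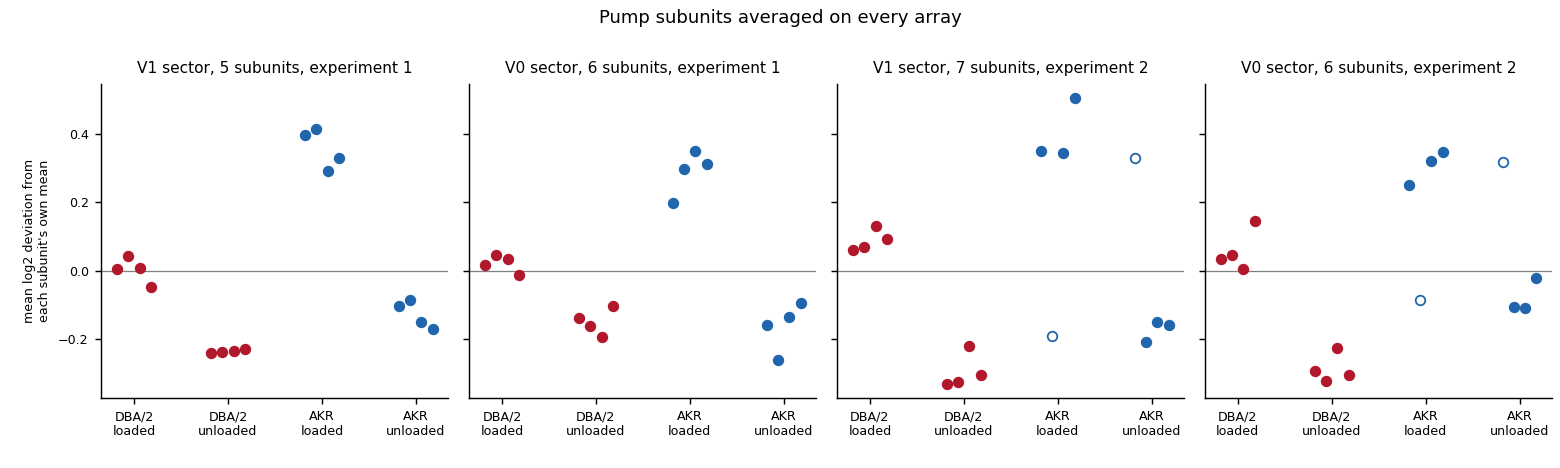
Mean deviation of the V1 and V0 subunits on every array (y axis, log2, relative to each subunit's own mean over the experiment) by group. Open points are the 2 AKR arrays of experiment 2 that correlated best with the other AKR group. On these arrays the V1 mean was -0.19 in the dish labelled loaded and 0.33 in the dish labelled unloaded.

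The calls in loaded AKR cells can be set side by side for the 33 members tested both in experiment 1 and in experiment 2 without the 2 arrays. Of these, 16 rose in experiment 1 and 9 in experiment 2, and 7 were among both, which is 7 of 16 and 7 of 9. They were Tcirg1, Atp6v0e, Atp6v1c1, Atp6v1d, Atp6v1e1, Atp6v1f and Clcn7. Among them, Tcirg1 and Atp6v1c1 were read from different probes in the 2 experiments. The 2 members that fell in loaded AKR cells of experiment 1 did not pass in experiment 2, where Laptm4a had a difference of -0.35 (adjusted p = 0.0372) and Lamp2 of -0.19 without the 2 arrays. No member had calls in opposite directions in the 2 experiments. Same and opposite calls over all genes were not counted, so these overlaps have no share beside them.

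The loading response was also set beside the E-boxes. In loaded AKR cells of experiment 1, 4 of 8 members with CACGTG rose, with a median log2 difference of 0.27, as did 10 of 20 tested members whose windows lack it, with a median of 0.23. Lamp1, which has 4 E-boxes, had a difference of 0.12, and Tcirg1, which has none, of 1.26.

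Whether loading acted differently in the strains was tested by the interaction term, the loading difference in DBA/2 cells minus that in AKR cells. In experiment 1 it passed for 10 of 34 members, 2 positive and 8 negative, against 15.8% of all genes, 7.61% positive and 8.2% negative. The median over the members was -0.14, against 0.00 over all genes. All 8 members with a negative term had risen in AKR cells. The 2 with a positive term, Lamp2 (0.49) and Laptm4a (0.46), had fallen there. The AKR difference is subtracted in the term, so these signs are not independent of it.

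Tcirg1 had the largest interaction term among the members, -1.04 ± 0.11 (adjusted p = 9.86e-08), and its 3 probes were all called in this direction. The others with a negative term were Slc17a5 (-0.64), Ctns (-0.57), Clcn7 (-0.55), Atp6v1c1 (-0.54), Atp6v1a (-0.50), Atp6v0b (-0.34) and Ostm1 (-0.33). Atp6v1a and Atp6v0b lay close to the threshold, with adjusted p of 0.00912 and 0.00967, and their calls were lost in 11 and 14 of 16 fits that left out 1 array. For Lamp2 the other probe gave 0.28 and was not called. The terms of Npc1 (-0.00 ± 0.11) and Atp6v0a1 (-0.01 ± 0.10) were near 0, and their loading differences in DBA/2 and AKR cells were alike to 0.01 log2 units.

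In experiment 2 the interaction passed for 0 of 34 members by the labels, against 0.994% of all genes, 0.588% positive and 0.406% negative. At an unadjusted p under 0.05 there were 7 members, 4 positive and 3 negative. The share of all genes at that threshold was not counted. Without the 2 AKR arrays it passed for 2 of 35, against 5.76% of all genes, 3.17% positive and 2.59% negative, namely Cd164 (-0.85 ± 0.16, adjusted p = 0.00312) and Slc11a2 (-0.72 ± 0.16, adjusted p = 0.00814). Cd164 measured 10.05, 10.18 and 10.14 in the 3 remaining loaded AKR dishes, against 9.82, 9.82 and 10.18 in the 3 remaining unloaded ones, which overlapped. The terms of Tcirg1 and Clcn7, called in experiment 1, were 0.11 ± 0.13 and -0.24 ± 0.15 there, and that of Atp6v1c1 was -0.48 ± 0.17 (adjusted p = 0.101). The terms of Tcirg1 in experiments 1 and 2 thus had opposite signs, and whether they differ was not tested. Tcirg1 and Atp6v1c1 were each read from a different probe in the 2 experiments. None of the 10 members called in experiment 1 was called in experiment 2.

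The strains were then compared at rest. In unloaded cells of experiment 1, 5 members were higher and 5 lower in DBA/2 than in AKR, against 28.2% of all genes called, 14.3% higher and 13.9% lower. In unloaded cells of experiment 2, 4 were higher and 6 lower, against 10.6% of all genes, 4.96% higher and 5.69% lower. Atp6v1d and Cd164 were higher in DBA/2 cells of both experiments, and Atp6v0d1 and Cd63 lower. Atp6v0d1 and Cd63 were read from different probes in the 2 experiments.

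Atp6v1d encodes the V1 subunit D of the central rotor, and showed the largest strain difference of the members. In experiment 1 it measured 9.75, 9.78, 9.74 and 9.76 in unloaded DBA/2 dishes, against 7.94, 7.999, 7.82 and 7.42 in unloaded AKR dishes, 3.89-fold higher in DBA/2 (log2 difference 1.96 ± 0.10, adjusted p = 2.66e-14). In experiment 2 it measured 9.64, 9.64, 9.46 and 9.69 in unloaded DBA/2 dishes, against 8.11, 7.24, 7.45 and 7.46 in unloaded AKR dishes, 4.12-fold higher (adjusted p = 2.37e-07). No AKR array of either experiment, loaded or not, reached a DBA/2 array.

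The same single Atp6v1d probe was used on both arrays, so the experiments do not check each other's probe. The authors removed probes over sequence that differs between the strains before their own tests, but the deposited tables hold all probes, and whether this probe is one of those was not tested. The same limit holds for every strain difference given here. Other subunits of the V1 sector had strain differences between -0.35 and 0.24 in unloaded cells of experiment 1.

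Cd164 measured 10.18, 10.09, 10.09 and 10.13 in unloaded DBA/2 dishes, against 9.82, 9.82, 9.70 and 9.64 in unloaded AKR dishes of experiment 1 (log2 difference 0.38 ± 0.06, adjusted p = 4.09e-05). In experiment 2 it measured 10.46, 10.47, 10.52 and 10.46 in unloaded DBA/2 dishes, against 9.99, 9.82, 9.82 and 10.18 in unloaded AKR dishes. The log2 difference was 0.53 ± 0.12 (adjusted p = 0.0047), a call lost in 6 of 16 fits that left out 1 array. The groups did not overlap in either experiment.

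Atp6v0d1, the d subunit at the base of the V0 sector, measured 11.27, 11.10, 11.22 and 11.24 in unloaded DBA/2 dishes, against 11.57, 11.36, 11.56 and 11.71 in unloaded AKR dishes of experiment 1 (-0.34 ± 0.08, adjusted p = 0.00175). In experiment 2 Atp6v0d1 stood at 10.08, 10.38, 10.37 and 10.25 in unloaded DBA/2 dishes, against 11.33, 10.77, 10.74 and 10.75 in unloaded AKR dishes (-0.63 ± 0.14, adjusted p = 0.00504). All probes of Atp6v0d1 were lower in unloaded DBA/2 cells in both experiments.

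Cd63, a tetraspanin of late endosomes and lysosomes, measured 12.81, 12.86, 12.98 and 12.999 in unloaded DBA/2 dishes, against 13.09, 13.12, 13.23 and 13.31 in unloaded AKR dishes of experiment 1 (-0.28 ± 0.08, adjusted p = 0.00873). In experiment 2 it measured 12.25, 12.05, 11.99 and 11.74 in unloaded DBA/2 dishes, against 12.91, 12.65, 12.67 and 12.57 in unloaded AKR dishes (-0.69 ± 0.12, adjusted p = 5.45e-04). Neither pair of groups overlapped. The call in experiment 1 was lost in 8 of 16 fits that left out 1 array. Of its 3 probes in experiment 2, 2 were called and the third, not called, gave -0.45.

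The remaining calls at rest differed between the experiments. In experiment 1 Slc17a5 (0.37), Abca2 (0.26) and Atp6v1e1 (0.24) were higher in unloaded DBA/2 cells, and Atp6v1c1 (-0.35), Atp6ap2 (-0.30) and Atp6v1b2 (-0.29) were lower. The second probe of Atp6v1c1 gave -0.10, and 1 of the 3 probes of Atp6ap2 gave 0.02, neither called. In experiment 2 Atp6v0a2 (0.47) and Lamp2 (0.46) were higher and Atp6v0b (-0.74), Scarb2 (-0.57), Atp6v0a1 (-0.52) and Ctns (-0.46) were lower. Of 16 fits that left out 1 array, 12 lost the call of Atp6v0a2, 6 that of Lamp2 and 6 that of Atp6v0a1. The second probe of Atp6v0a1 gave -0.11 and was not called. Of the 4 Lamp2 probes, 2 were called higher in unloaded DBA/2 cells and 2 gave -0.20 and -0.08, so the sign for Lamp2 depends on the probe.

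Without the 2 AKR arrays, 4 members were higher and 7 lower in unloaded DBA/2 cells of experiment 2, against 15% of all genes, 7% higher and 8.03% lower. Clcn7 (0.51) joined the higher ones and Ostm1 (-0.37) the lower ones, while Lamp2 (0.43, adjusted p = 0.0107) no longer passed. The other members called were those called by the labels.

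After loading, most of the members that differed between the strains in experiment 1 were lower in DBA/2 cells. Of 34 members 4 were higher and 13 lower in loaded DBA/2 than in loaded AKR cells, against 29.7% of all genes called, 15.1% higher and 14.6% lower. The median log2 difference over the members was -0.17, against 0.01 over all genes. In experiment 2 by the labels 2 were higher and 3 lower, against 12.8% of all genes, 6.79% higher and 6.04% lower, and without the 2 AKR arrays 2 were higher and 9 lower, against 20.6% of all genes, 10.3% higher and 10.3% lower.

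The 13 lower members of experiment 1 were Tcirg1 (-0.97), Atp6v1c1 (-0.88), Ctns (-0.79), Atp6v1a (-0.68), Atp6v0d1 (-0.52), Slc11a2 (-0.48), Clcn7 (-0.44), Laptm4b (-0.44), Litaf (-0.44), Cd63 (-0.33), Atp6ap2 (-0.30), Slc17a5 (-0.26) and Ostm1 (-0.21). Loaded DBA/2 dishes held Tcirg1 at 11.24 to 11.44 and loaded AKR dishes at 12.22 to 12.36, 1.96-fold lower in DBA/2 (adjusted p = 1.04e-10). Atp6v1c1 lay between 10.59 and 10.76 in loaded DBA/2 dishes and between 11.52 and 11.64 in loaded AKR dishes, 1.85-fold lower in DBA/2 (adjusted p = 2.7e-11). The remaining probe of Atp6ap2 gave -0.03 and was not called. The 4 higher members were Atp6v1d (1.72), Lamp2 (0.49), Laptm4a (0.48) and Cd164 (0.29).

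**Figure D5:**
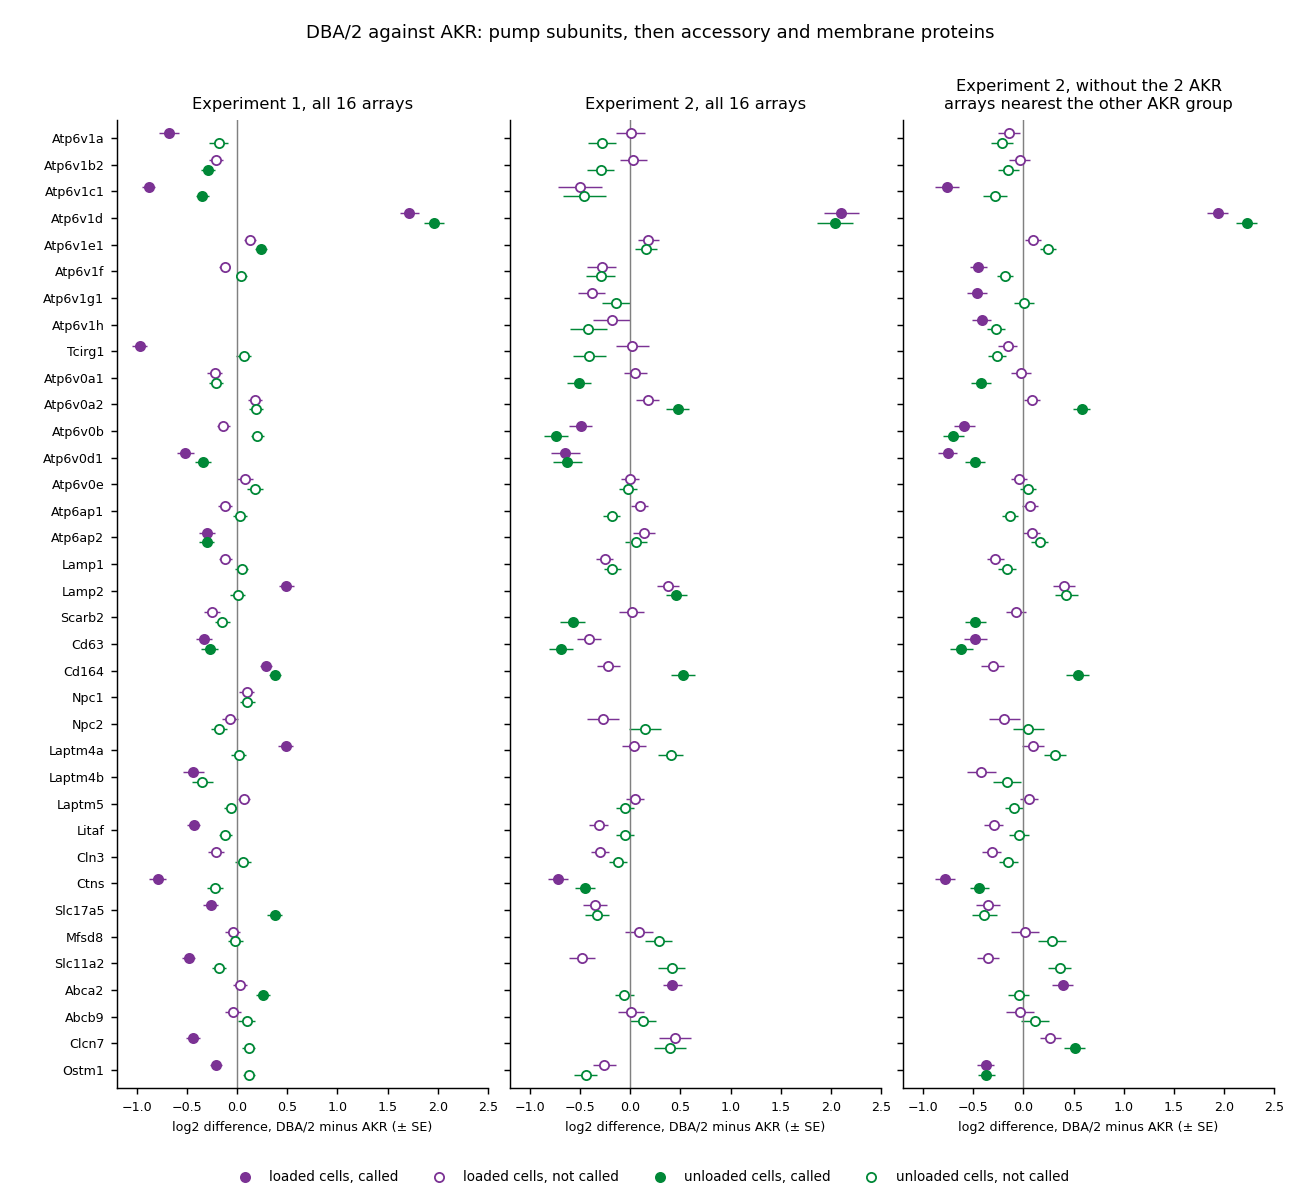
Strain difference of every member tested, as log2 DBA/2 minus AKR ± SE (x axis), in loaded (purple, upper) and unloaded (green, lower) cells. Filled points passed an adjusted p under 0.01. Atp6v1d lies near 2 in both experiments, and in experiment 1 13 members are lower in loaded DBA/2 cells.

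Atp6v0d1, Ctns and Atp6v1d were called between the strains in loaded cells of both experiments by the labels. Ctns had not been called in unloaded cells of experiment 1, where its groups overlapped. Ctns measured 8.95, 8.99, 8.89 and 8.91 in loaded DBA/2 dishes, against 9.59, 9.82, 9.87 and 9.64 in loaded AKR dishes of experiment 1 (adjusted p = 2.05e-08). In experiment 2 it measured 7.96, 7.88, 7.83 and 7.81 in loaded DBA/2 dishes, against 8.69, 8.39, 8.59 and 8.68 in loaded AKR dishes (-0.72 ± 0.10, adjusted p = 5.29e-05). The groups did not overlap in either experiment.

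Atp6v0d1 measured 11.28, 11.11, 11.43 and 11.34 in loaded DBA/2 dishes, against 11.66, 11.79, 11.96 and 11.84 in loaded AKR dishes of experiment 1 (adjusted p = 1.41e-05). In experiment 2 it measured 10.31, 10.55, 10.28 and 10.51 in loaded DBA/2 dishes, against 11.11, 10.74, 11.14 and 11.26 in loaded AKR dishes (-0.65 ± 0.14, adjusted p = 0.00336). Atp6v1d measured 9.85, 9.72, 10.02 and 10.06 in loaded DBA/2 dishes, against 8.30, 8.06, 8.15 and 8.27 in loaded AKR dishes of experiment 1, and 10.02, 9.95, 10.02 and 9.94, against 7.84, 7.38, 8.03 and 8.26, in experiment 2. It was 3.29-fold and 4.30-fold higher in loaded DBA/2 cells of experiments 1 and 2.

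The other calls in loaded cells of experiment 2 by the labels were Abca2 (0.42), higher in DBA/2 cells, and Atp6v0b (-0.49), lower. A second probe of Cd63 (-0.46) and of Atp6ap2 (-0.46) was called lower where the brightest probe gave -0.42 and 0.14, and Lamp2 had 1 probe called higher (0.50) and 1 called lower (-0.59). Without the 2 AKR arrays, Atp6v1c1 (-0.76), Cd63 (-0.48), Atp6v1g1 (-0.47), Atp6v1f (-0.45), Atp6v1h (-0.42) and Ostm1 (-0.38) were called lower in addition to Ctns (-0.78), Atp6v0d1 (-0.76) and Atp6v0b (-0.59). The log2 difference of Tcirg1 was -0.16 (adjusted p = 0.226) there, where that of experiment 1, read from a different probe, was -0.97. By the labels, the difference of Tcirg1 in loaded cells of experiment 2 was positive by its brightest probe and negative by the mean of its probes.

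Several members were not read or not called. Atp6v0d2, the osteoclast-enriched d subunit, did not pass the filter in either experiment, Atp6v1h did not in experiment 1 and Laptm4b did not in experiment 2 by the labels. Mfsd8, Npc2, Abcb9, Cln3, Lamp1, Laptm5 and Atp6ap1 were not called in any of the 5 comparisons of either experiment, also without the 2 AKR arrays. A member not called may still have moved, as Npc2 had a log2 difference of -0.51 in loaded DBA/2 cells of experiment 2.

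Genes of the same pathways outside the 38 were read from lists. Over all genes of experiment 1, 6.42% rose and 6.4% fell in loaded DBA/2 cells. In loaded AKR cells 16.2% rose and 15.1% fell. Of 8 further V-ATPase subunits and assembly factors tested in experiment 1, 1 rose and 1 fell in loaded DBA/2 cells and 1 rose and 3 fell in loaded AKR cells, with medians of 0.00 and -0.16. Named after their values were seen, the pump subunits Atp6v0e2 (-0.28) and Atp6v1g2 (-0.29) and the assembly factor Rogdi (-0.54) fell in AKR cells, and Atp6v1g2 (-0.37) fell in DBA/2 cells. Of 25 other lysosomal membrane proteins, 2 rose and 5 fell in loaded DBA/2 cells, and 8 rose and 6 fell in loaded AKR cells. Of 8 genes of the Ragulator and Rag complex, which anchors mTORC1 to the lysosome and binds the V-ATPase, 1 rose in loaded DBA/2 cells and 3 rose in loaded AKR cells, and none fell. Rragd, a Rag GTPase, rose most of these in AKR cells, by 1.14 ± 0.07 in the first experiment (adjusted p = 1.21e-12) and by 1.20 ± 0.13 in the second without the 2 AKR arrays.

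In experiment 2 by the labels, 0 members of these lists were called in loaded AKR cells, as were 0% of all genes. In loaded DBA/2 cells 4.57% of all genes rose and 3.74% fell. In loaded DBA/2 cells the endolysosomal channel Tpcn2 rose by 1.10 ± 0.24 (adjusted p = 0.00467), 3 of 22 other lysosomal membrane proteins rose and 1 fell, and none of 10 Ragulator and Rag genes and none of 10 further V-ATPase genes was called. When the 2 AKR arrays were left out, 6 of these 22 membrane proteins rose and 2 fell in loaded DBA/2 cells, 3 of 10 Ragulator and Rag genes rose, among them Rragd (0.91), and 1 of 10 further V-ATPase genes rose and 1 fell. In loaded AKR cells of the same fit 6 of the membrane proteins rose and 4 fell, Rragd rose, and 1 V-ATPase gene rose and 1 fell. Over all genes of that fit, 10.3% rose and 8.64% fell in loaded DBA/2 cells, and 10.1% rose and 9.63% fell in loaded AKR cells. By the labels, Tpcn1, the related channel, was higher in loaded DBA/2 than in loaded AKR cells (1.08 ± 0.20, adjusted p = 0.00110). Without the 2 AKR arrays Tpcn2 rose by 1.17 and the assembly factor Tmem199 by 1.12 in loaded AKR cells, and Tpcn1 had an interaction term of 1.22. In the same fit Tpcn1 was higher by 1.30 in loaded DBA/2 than in loaded AKR cells, where Slc36a1, an amino acid exporter, had a difference of -1.05 and Rragd of -1.02.

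Markers of other cells were read beside these results. Osteoclasts arise from the same M-CSF dependent precursors and also use Tcirg1, and 6 of 9 osteoclast markers passed the filter in experiment 1 and 5 of 9 in experiment 2, while Calcr and Ocstamp did not in either. Their summed level (linear scale) in experiment 1 was 5003 to 6549 in loaded and 3020 to 3406 in unloaded DBA/2 dishes, and 5746 to 6587 in loaded and 4522 to 5730 in unloaded AKR dishes. In experiment 2 it was 998 to 1277 in loaded and 1044 to 1154 in unloaded DBA/2 dishes, and 1585 to 1833 in loaded and 1595 to 1846 in unloaded AKR dishes, or 1595 to 1820 in unloaded ones without the 2 arrays.

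The osteoclast markers did not move as 1 group. In loaded DBA/2 cells of experiment 1, Mmp9 (1.44) and Ctsk (0.40), the protease cathepsin K that macrophages also make, rose. In loaded AKR cells Ctsk rose (1.30) and Dcstamp, which osteoclasts need to fuse, fell (-0.35). In unloaded cells of experiment 1 Mmp9 (-1.08) and Ctsk (-0.80) were lower in DBA/2 than in AKR, and the transcription factor Nfatc1 (0.44) was higher. In loaded cells Ctsk (-1.70) was lower and Dcstamp (0.53) and Nfatc1 (0.39) were higher. In experiment 2 by the labels, Ctsk and Mmp9 were lower in unloaded (-1.92 and -0.68) and loaded (-1.62 and -0.59) DBA/2 cells, and none was called on loading. Nfatc1 fell on loading in both strains once the 2 AKR arrays were left out (-0.36 in DBA/2 and -0.60 in AKR cells). The part of these genes in the differences of the pump was not tested.

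The 6 macrophage markers summed to 40142 to 41304 in loaded and 40884 to 43632 in unloaded DBA/2 dishes, and to 31958 to 33448 in loaded and 41993 to 45230 in unloaded AKR dishes of experiment 1. In loaded DBA/2 cells of experiment 1 Mrc1 fell and 2 of the 6 rose, and in loaded AKR cells 4 of 6 fell, among them Adgre1 (-1.25) and Mrc1, and Mertk rose (0.55). In experiment 2 the sums were 28895 to 31482 in loaded and 31522 to 33356 in unloaded DBA/2 dishes, and 22189 to 28055 in loaded and 24357 to 29047 in unloaded AKR dishes, or 22189 to 24759 and 25841 to 29047 without the 2 arrays. By the labels 1 of 6, Mertk, was called on loading there, in DBA/2 cells, and without the 2 arrays 1 rose and 3 fell in DBA/2 cells and 4 fell in AKR cells. Mertk was lower in unloaded DBA/2 than in unloaded AKR cells of both experiments (-0.95 and -1.36), and was called lower in loaded DBA/2 cells of both as well. In unloaded cells of experiment 1 Mrc1 was also lower in DBA/2 and Cd14 higher. In loaded cells Adgre1 (1.11 and 1.59) and Cd14 (1.19 and 1.34) were higher in DBA/2 cells of both experiments, and Itgam was higher in experiment 1. In bulk samples fewer cells of a type and less RNA per cell cannot be told apart. Of the lists for neutrophils, B cells, T and NK cells, dendritic cells, stromal cells, and mast and erythroid cells, between 0 and 3 genes each passed the filter. Neutrophil markers summed to 1439 to 2047 in loaded and 655 to 692 in unloaded DBA/2 dishes of experiment 1, and to 817 to 883 in loaded and 720 to 881 in unloaded AKR dishes, and 2 of 7 passed the filter. S100a8, a neutrophil gene, rose there in loaded DBA/2 cells (2.14) and was higher in loaded DBA/2 than in loaded AKR cells (1.53). It was lower in DBA/2 cells of experiment 2, with log2 differences of -1.71 in unloaded and -1.38 in loaded cells with all arrays and of -1.79 and -1.10 when the 2 AKR arrays were left out. The stromal gene Dcn was higher in DBA/2 cells of experiment 1 (1.72 in unloaded and 2.61 in loaded cells), where stromal markers summed to 565 to 639 in loaded and 396 to 461 in unloaded DBA/2 dishes, and to 333 to 352 in loaded and 315 to 351 in unloaded AKR dishes, and the collagen genes of that list did not pass the filter. The B cell gene Cd79b was higher in unloaded DBA/2 cells of experiment 2 (1.74, or 1.58 without the 2 arrays). The part of these cells in the results was not tested.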

How the data were processed

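Total RNA of 32 dishes was hybridised to Illumina arrays, 1 array a dish. The deposited log2 values had been quantile normalized by the authors with lumi 2.6.0, separately for each experiment. They were used as given, so no level was set across experiments, and the number of arrays limits the precision. Probes were matched to RefSeq symbols of GRCm38.p6 through the platform annotation. In experiment 1, 20984 of 24613 probes had 1 gene, 1 had several and 3628 had none. In experiment 2, 23978 of 25697 probes had 1 gene and 1719 had none.

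A probe was kept if its highest group mean exceeded the median of all values, which was 5.98 in experiment 1 and 4.29 in experiment 2. All 16 arrays of an experiment entered 1 model with the terms strain, loading and their interaction, fitted with limma (version 3.58.1, R 4.3.3), and p-values were adjusted after Benjamini and Hochberg over all kept probes. Calls were made at an adjusted p under 0.01. A gene was read from its kept probe with the highest mean, and differences are given with their SE. Of 32 members read in both experiments, 25 were read from the same probe. The others, read from different probes, were Abcb9, Atp6ap2, Atp6v0d1, Atp6v1c1, Cd63, Scarb2 and Tcirg1. The script was tested on simulated data.

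Every called member is named. Values per array are given for members called with an absolute log2 difference of at least 0.8, for those with the same call in both experiments, and for a few further members chosen after their values were seen. Genes of the pathway lists have values where called at a log2 difference of at least 1, and marker genes and a few others were named after their values were seen. Members and lists were chosen with earlier results of these data known. The authors removed probes over strain variants and undetected probes before their tests, which could not be repeated here. The methods put 2 arrays of each group on each chip and do not say which, so replicates 1 and 2 against 3 and 4 were fitted as a presumed chip, an alternative chosen after seeing the data.

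Alternatives were no filter and one at the 75th percentile, 50 added before log2, cyclic loess, the mean of a gene's probes, trended and robust moderation, a fit of the compared groups alone, the replicate number as a block, and each array left out. Figures were drawn with matplotlib 3.10.9.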

Additional observations from a re-analysis of the deposited data

Results flagged for a closer look

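Over 272 groups of 4 arrays, 1 for each member, group and experiment, 20 had an array whose gap to its nearest neighbour exceeded the critical value of Dixon's test for 4 values. Chance gives this in about 1 in 20 groups, or 13.6 of 272. All values are log2 levels.

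In DBA/2 loaded cells of experiment 1, replicate 2 stood at 9.05 for Atp6ap2, replicate 4 at 11.30 for Atp6v1a and replicate 1 at 11.70 for Lamp2, each below the other 3 arrays. In DBA/2 unloaded cells, Atp6v1e1 was low in replicate 2 (12.51), while Atp6v1f was high in replicate 3 (12.19) and Lamp1 in replicate 1 (13.31). In AKR loaded cells, Clcn7 was high in replicate 3 (10.08) and Lamp1 in replicate 2 (13.34), and Tcirg1 was low in replicate 1 (12.22). In AKR unloaded cells, Atp6v0a2 was high in replicate 1 (9.24) and Laptm4b low in replicate 3 (5.85).

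In experiment 2, 5 of the 9 arrays set apart in this way were the 2 AKR arrays that correlated best with the other AKR group. AKR loaded replicate 2 was low for Atp6v0a1 (10.46), Atp6v1f (11.08) and Ostm1 (9.96), and AKR unloaded replicate 1 was high for Atp6v0d1 (11.33) and Atp6v0e (11.80). The others were Litaf, low in DBA/2 loaded replicate 1 (11.73) and in AKR unloaded replicate 3 (12.10), Atp6v0e, low in DBA/2 unloaded replicate 1 (11.45), and Cln3, high in AKR loaded replicate 1 (9.50).

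The loading difference differed between the strains by the interaction term of limma for 10 members in experiment 1. The term, DBA/2 minus AKR, was -1.04 for Tcirg1, -0.64 for Slc17a5, -0.57 for Ctns, -0.55 for Clcn7, -0.54 for Atp6v1c1, -0.50 for Atp6v1a, -0.34 for Atp6v0b, -0.33 for Ostm1, 0.46 for Laptm4a and 0.49 for Lamp2. In experiment 2 without the 2 AKR arrays it was -0.85 for Cd164 and -0.72 for Slc11a2.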

How the results depend on the processing

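None of the 83 calls of single members changed sign under any setting. Of the member differences that were not called, 13 of 257 changed sign with the mean of a gene's probes, 7 with cyclic loess, 1 with 50 added and 17 of 149 without the 2 AKR arrays. In experiment 1, counts of called members stayed within 1.5 times under all the other settings, except loading in DBA/2 cells, which gave 3 calls without a filter against 6. In experiment 2, no filter gave 3 calls for strain in unloaded and 3 in loaded cells, against 10 and 5. The 75th percentile filter gave 1 for the interaction and 8 for strain in loaded cells, the added 50 and trended moderation each gave 1 and 9, and a fit of the compared groups alone gave 12 for loading in DBA/2 cells and 4 and 3 for strain in unloaded and loaded cells. Without the 2 AKR arrays, chosen after seeing the data, the counts were 11 for loading in AKR cells, against 0, 12 for loading in DBA/2 cells, 2 for the interaction and 11 for strain in loaded cells. Since only AKR arrays were left out, the added calls for loading in DBA/2 cells came with unchanged DBA/2 differences of the pump subunits. The other causes were not tested, beyond the additional genes tested without a filter and the fewer arrays in the smaller fits.

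With the replicate number as a block, the interaction of experiment 2 gave 1 call and no other count moved by over 1.5 times, while 3 single calls were lost. Same-numbered arrays had a mean correlation of deviations of 0.079 in experiment 1 and 0.092 in experiment 2, and 9 and 12 of 24 pairs exceeded 0.1, so numbers were not taken as pairs. Deviations correlated positively for 46 of 48 pairs within replicates 1 and 2 or within 3 and 4 of experiment 1 and for 5 of 48 across them, and for 35 and 10 of 48 in experiment 2. With these sets as a presumed chip, no count moved by over 1.5 times, and the call of Atp6v0a2 for strain in unloaded cells of experiment 2 was lost.

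Leaving out each array gave 2 to 6 calls for loading in DBA/2 cells of experiment 1, the 2 without DBA/2 loaded replicate 2. In experiment 2 the range was 0 to 1 for the interaction, the 1 without AKR loaded replicate 2. For strain in unloaded cells it was 4 to 11, with 4 to 6 without any 1 of the DBA/2 unloaded arrays or of AKR unloaded replicates 1 and 2. For strain in loaded cells it was 2 to 6, with 2 or 3 without DBA/2 loaded replicate 1 or 3 or AKR loaded replicate 1 or 3. Of 83 single calls, 50 were kept without each array in turn.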
